A study of Rattus norvegicus with 4 samples.

Results

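Glycolysis, glucose entry and hypoxia response genes were followed as a set of 36 named genes, all 36 of which had a row of their own among the 14506 genes tested. Only rows annotated to exactly 1 gene symbol were eligible, and where a symbol had several rows the brightest over the 4 arrays stood for the gene. They were listed by their role in these pathways. The 4 isoforms that skeletal muscle makes in large amounts (Pfkm, Pgam2, Eno3 and Aldoa) were kept apart from the other 32. The samples were retroperitoneal white fat, a visceral depot, from 2 obese and 2 lean male WNIN/Ob rats, a strain bred with an obese and a lean phenotype. All 4 rats were 4 months old, ate stock diet freely and received no treatment, and their genotype is not given in the sources used here. Each rat gave 500 mg of tissue and 1 Affymetrix Rat Gene ST array, so a value below is 1 animal.

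Cells take up glucose through transporters of the Slc2a family, trap it with hexokinase and split it in a chain of enzymes to pyruvate, which lactate dehydrogenase turns to lactate for export by Slc16a carriers. In low oxygen the prolyl hydroxylases of the Egln family stop marking the HIF alpha subunits (Hif1a, Epas1) for destruction, and HIF then switches on genes of glycolysis, vessel growth and mitochondrial removal. HIF binds a short core in DNA, and its alpha subunits are controlled mainly as proteins, so their transcript levels say little about HIF activity. Expanding fat has been studied as a tissue that may run short of oxygen, and fat cells and macrophages both use glycolysis.

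Promoters of 5 members are shown, because they are members with the 3 highest positive differences (Slc16a1, Hk3 and Pgam1), the member with the most matches to the HIF core (Ldha) and the member with the most negative difference (Eno3). Each line runs 5′ to 3′ from 250 bases before to 50 bases after the start of the gene, from RefSeq on build GRCr8, and capitals mark the HIF core, searched as ACGTG and GCGTG on both strands.
Slc16a1: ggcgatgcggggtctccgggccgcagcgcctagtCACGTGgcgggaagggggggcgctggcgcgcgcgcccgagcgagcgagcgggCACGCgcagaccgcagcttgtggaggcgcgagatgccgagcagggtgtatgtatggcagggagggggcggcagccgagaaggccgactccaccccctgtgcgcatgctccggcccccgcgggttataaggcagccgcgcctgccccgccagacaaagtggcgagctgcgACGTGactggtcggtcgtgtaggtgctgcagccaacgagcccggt
Hk3: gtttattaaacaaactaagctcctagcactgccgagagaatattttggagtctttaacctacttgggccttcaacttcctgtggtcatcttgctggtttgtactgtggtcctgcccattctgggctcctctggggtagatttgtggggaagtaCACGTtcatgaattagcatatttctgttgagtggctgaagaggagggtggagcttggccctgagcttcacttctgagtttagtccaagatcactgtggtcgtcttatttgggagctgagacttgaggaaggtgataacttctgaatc
Pgam1: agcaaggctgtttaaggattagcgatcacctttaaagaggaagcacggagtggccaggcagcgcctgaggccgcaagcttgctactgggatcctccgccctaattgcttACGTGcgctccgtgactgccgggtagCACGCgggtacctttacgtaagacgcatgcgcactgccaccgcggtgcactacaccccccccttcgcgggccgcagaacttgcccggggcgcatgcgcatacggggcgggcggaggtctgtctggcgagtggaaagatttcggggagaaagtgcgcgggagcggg
Ldha: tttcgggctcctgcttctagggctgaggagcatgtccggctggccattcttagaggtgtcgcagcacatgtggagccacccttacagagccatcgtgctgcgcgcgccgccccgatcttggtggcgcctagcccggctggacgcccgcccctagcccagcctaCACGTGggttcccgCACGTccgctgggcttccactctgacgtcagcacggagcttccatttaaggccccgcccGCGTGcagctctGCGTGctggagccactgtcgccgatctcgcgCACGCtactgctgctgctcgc
Eno3: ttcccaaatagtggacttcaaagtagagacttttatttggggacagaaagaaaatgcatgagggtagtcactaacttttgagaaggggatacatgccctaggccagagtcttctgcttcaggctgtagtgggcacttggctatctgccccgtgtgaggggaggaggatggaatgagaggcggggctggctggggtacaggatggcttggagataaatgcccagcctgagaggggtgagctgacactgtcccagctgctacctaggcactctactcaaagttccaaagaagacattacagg
The windows lie at chr2:194812410-194812709, plus strand for Slc16a1, at chr17:9604781-9605080, plus strand for Hk3 and at chr1:250672902-250673201, plus strand for Pgam1. The window of Ldha lies at chr1:106507842-106508141, plus strand, and that of Eno3 at chr10:55868936-55869235, plus strand. Ldha held 6 matches, Slc16a1 4, Pgam1 2, Hk3 1 and Eno3 0. A match on each strand counts separately, so the palindrome CACGTG, present in Ldha and Slc16a1, counts as 2. Of the 33 members with a window in the RefSeq table, 23 held the core (69.7%), against 52.9% of the 11951 genes of the array with a window. The core contains CG, and the members' windows had a median GC content of 62.8%, against 58.0% for the array's genes. A match is a description of the letters in this window, not a site that was shown to be bound.

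No member passed the test for a difference between the phenotypes at this array number. By limma with Benjamini-Hochberg adjustment over all genes, 0 of 36 members had an adjusted p under 0.05, where 0.772% of all genes were called higher and 0.0689% lower in the obese rats. At an unadjusted limma p under 0.05, 6 members were higher in the obese rats (16.7%) and 0 lower, against 9.93% of all genes higher and 5.33% lower. These 6 were Slc16a1, Hk3, Pgam1, Eno1, Eno2 and Pfkp. The excess over all genes depended on the scaling and on single rats. With quantile normalization 3 members were higher (8.33%, against 9.31% of all genes) and 0 lower (against 4.52%). Without lean rat 1, 13 were higher (36.1%, against 17.3%) and 0 lower (against 15.6%), while without lean rat 2, 4 were higher (11.1%, against 10.1%) and 5 lower (14%, against 6.69%). Without obese rat 1, 3 were higher and 3 lower (8.33% each, against 4.8% and 2.76%), and without obese rat 2, 3 were higher and 4 lower (8.33% and 11.1%, against 5.63% and 3.36%). For 13 members (36.1%, against 26.4% of all genes) the lower obese value exceeded the higher lean value, and for 4 (11.1%, against 21.3%) the higher obese value was under the lower lean value. The median difference, obese minus lean on the log2 scale, was 0.42 over the 32 members outside the muscle-rich isoforms and 0.00047 over all genes. For those 32 members it was 0.59 without lean rat 1, 0.11 without lean rat 2 and 0.24 with quantile normalization. An exact permutation test of 2 rats against 2 cannot give a two-sided p below 0.333, so single genes rest on the spread limma shares among genes. In whole tissue, fewer cells of a type and less RNA per cell cannot be told apart.

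**Figure D1:**
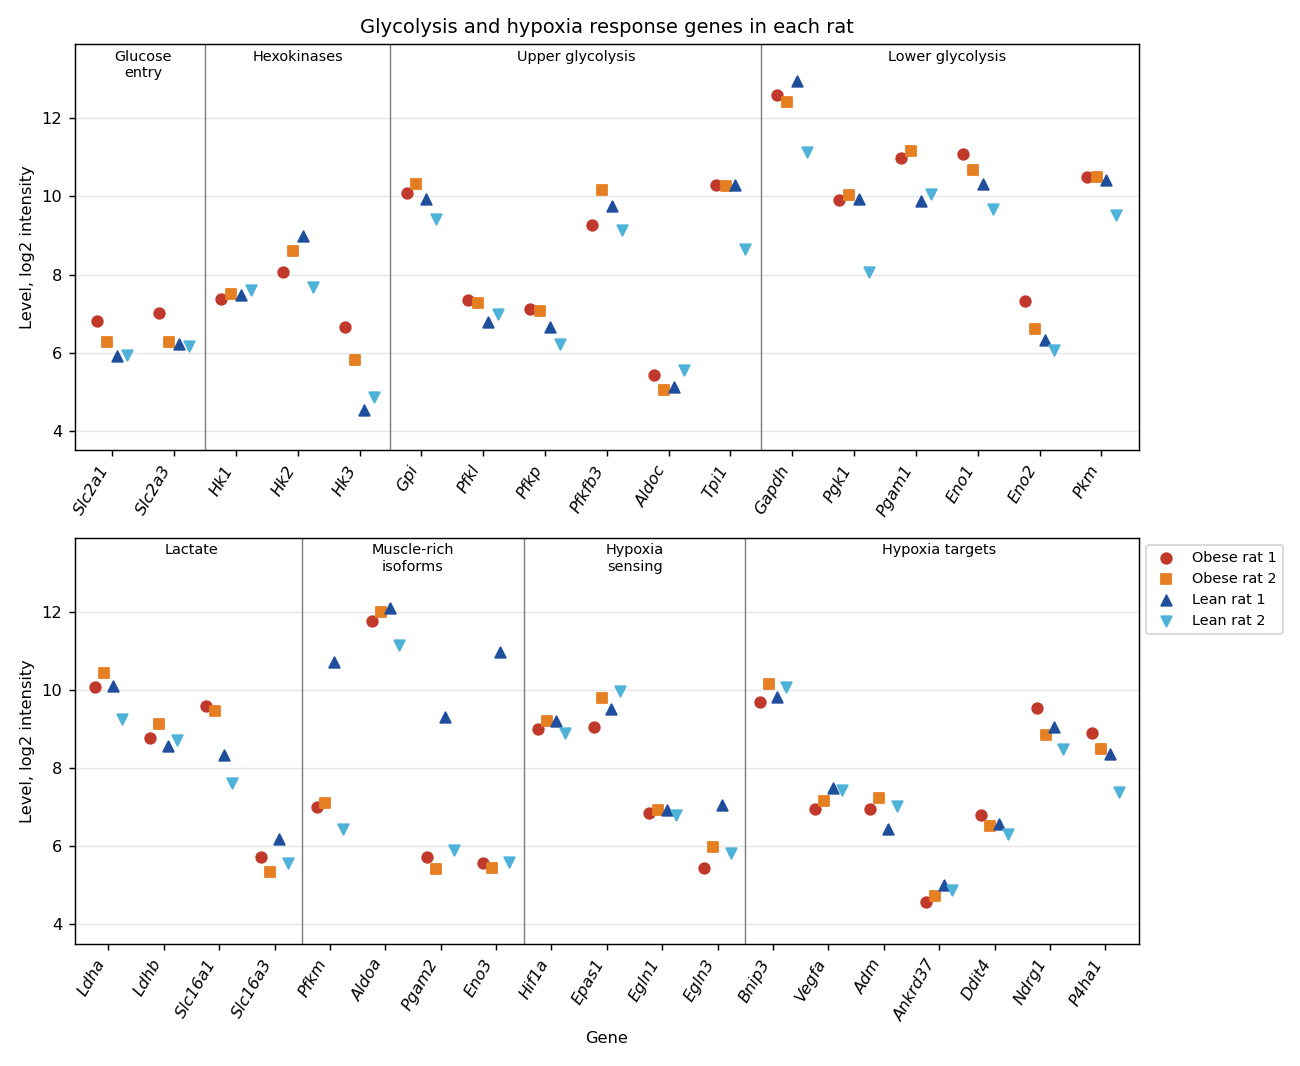
Level of each of the 36 genes (log2 intensity, vertical axis) in obese rat 1, obese rat 2, lean rat 1 and lean rat 2, 1 point per rat, with genes grouped by role. Pfkm, Pgam2 and Eno3 stand high in lean rat 1 alone (10.72, 9.30 and 10.97), whereas Slc16a1, Hk3 and Pgam1 are higher in both obese rats than in both lean rats.

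The lean arrays differed from each other, and this touches most values below. Lean rat 1 carried a strong skeletal muscle signal. The summed intensity of the 20 muscle markers measured (of 23 listed) was 783 to 1070 in the obese rats, against 52297 in lean rat 1 and 1024 in lean rat 2, and all 20 stood higher in lean rat 1 than in lean rat 2. The array of lean rat 2 had a narrower spread of log2 values, with an interquartile range of 2.76 and 2.77 in the obese rats, against 2.63 in lean rat 1 and 2.24 in lean rat 2. Among the 211 genes with a mean level of at least 10, the obese mean exceeded lean rat 2 by a median of 0.40 and lean rat 1 by 0.14. On every array all 15 adipocyte markers measured (of 16 listed) were above the 95th percentile of 188 olfactory and vomeronasal receptor genes. These receptors were used as the level of genes that fat does not use. The bar does not single out fat, since all 11 endothelial and all 9 fibroblast markers passed it on every array. Of the 20 muscle markers 20 passed it in lean rat 1, 13 in lean rat 2, and 19 and 15 in the obese rats. Differences are therefore given against both lean rats and against each alone. Without lean rat 1, 3 members passed as higher and 0 as lower, against 4.58% and 2.87% of all genes. Without lean rat 2, 0 passed as higher and 3 as lower, against 1.34% and 1.94% of all genes. In these fits the lean arm is 1 rat, the residual spread (1 degree of freedom) comes from the obese rats alone, and the lone lean rat is assumed to vary as they do. Limma adds to it a spread shared among all genes, with 5.12 prior degrees of freedom without lean rat 1 and 5.16 without lean rat 2. A pass there sets the obese rats against that rat and not against lean rats in general. The members past the threshold without lean rat 2 were the muscle-rich Eno3, Pgam2 and Pfkm, at -5.47, -3.73 and -3.66. Those without lean rat 1 were Slc16a1, Pgk1 and Tpi1, at 1.92, 1.91 and 1.64. Without lean rat 2 the differences of Slc16a1, Pgk1 and Tpi1 were 1.19, 0.03 and 0.00051. Without obese rat 1, 0 members passed as higher and 2 as lower (against 1.02% and 0.827% of all genes), and without obese rat 2, 1 as higher and 2 as lower (against 1.62% and 0.834%).

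**Figure D2:**
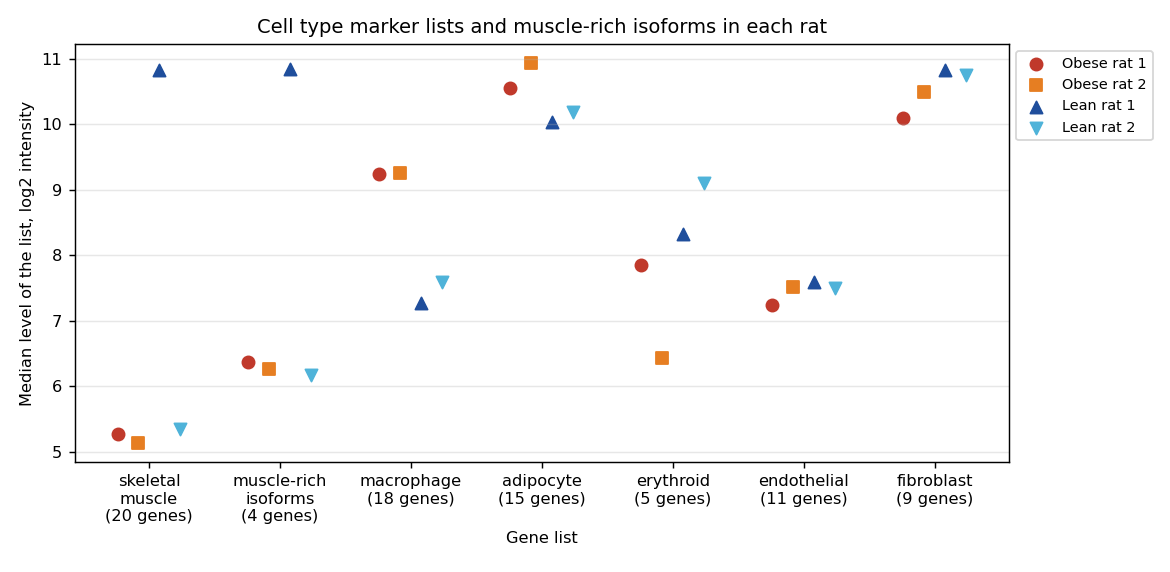
Median level (log2 intensity, vertical axis) of 6 cell type marker lists and of the 4 muscle-rich isoforms in each rat, 1 point per rat. Muscle markers and muscle-rich isoforms are high in lean rat 1 (10.82 and 10.84), and macrophage markers are higher in the obese rats (9.24 and 9.26) than in the lean rats (7.27 and 7.58).

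The muscle-rich isoforms followed lean rat 1. Eno3, the muscle beta enolase, was at 5.56 and 5.44 in the obese rats, against 10.97 and 5.60 in the lean rats. Pgam2, the muscle phosphoglycerate mutase, was at 5.72 and 5.41 in the obese rats, against 9.30 and 5.91 in the lean rats. Pfkm, the muscle phosphofructokinase, was at 7.01 and 7.10 in the obese rats, against 10.72 and 6.44 in the lean rats. For these 3 genes lean rat 1 stood alone and lean rat 2 lay close to the obese rats. The differences from both lean rats were -2.79 ± 1.37 for Eno3, -2.04 ± 0.89 for Pgam2 and -1.52 ± 1.11 for Pfkm (SE, n = 2 each, limma adjusted p = 0.378, 0.329 and 0.550). Against lean rat 1 alone, which is the fit without lean rat 2, the differences were -5.47, -3.73 and -3.66. Against lean rat 2 alone they were at -0.10, -0.35 and 0.62, and the sign of Pfkm turned. With obese rat 1 left out the differences of Eno3 and Pgam2 were -2.85 and -2.19, and with obese rat 2 left out -2.72 and -1.89. In the fits without an obese rat limma took each gene's spread wholly from the trend over all genes and not from the distance between the lean rats. Aldoa, the aldolase of muscle that most other tissues make too, had a smaller distance between the lean rats, at 11.76 and 11.99 in the obese rats, against 12.11 and 11.16 in the lean rats, and was at 0.24 ± 0.38. As a list the 4 isoforms had a median of -1.78, of 0.26 without lean rat 1 and of -3.70 without lean rat 2, and the 20 muscle markers had medians of -3.12, -0.15 and -5.81.

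Glucose entry was measured by the basal transporters. Slc2a1, the transporter that supplies most cells at rest, was at 6.81 and 6.28 in the obese rats, against 5.93 and 5.95 in the lean rats, a difference of 0.61 ± 0.28 (SE, n = 2 each, limma adjusted p = 0.344). Slc2a3, a high-affinity transporter of neurons and white blood cells, was at 7.0 and 6.27 in the obese rats, against 6.23 and 6.18 in the lean rats, a difference of 0.43 ± 0.31. The groups did not overlap for either gene, and obese rat 1 was the higher of the obese rats in each. Here the lean rats were close together, so the difference from lean rat 1 alone was 0.62 for Slc2a1 and 0.41 for Slc2a3, and from lean rat 2 alone 0.59 and 0.46. Without obese rat 1 the differences were 0.34 and 0.07.

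The hexokinases did not move together. Hk3, the hexokinase of myeloid cells, was at 6.65 and 5.81 in the obese rats, against 4.54 and 4.87 in the lean rats, a difference of 1.53 ± 0.32 or 2.89-fold (limma adjusted p = 0.084). The groups did not overlap, and both lean values lay under the 95th percentile of receptor genes on their arrays, so the size of the difference is uncertain. Without obese rat 2 the difference of Hk3 was 1.95, and without obese rat 1 it was 1.11. The summed intensity of 18 macrophage markers was 14326 to 19778 in the obese rats, against 5046 to 5566 in the lean rats. Of the 18 markers 6 were called higher (33.3%, against 0.772% of all genes), namely Gpnmb, Mpeg1, Spp1, Lyz2, Itgb2 and Itgam. Their part in the level of Hk3 was not tested. Hk1, the hexokinase found in most tissues, was at 7.36 and 7.5 in the obese rats, against 7.49 and 7.60 in the lean rats, and its difference was -0.11 ± 0.28. Hk2, the hexokinase of insulin-sensitive tissues, was at 8.05 and 8.59 in the obese rats, against 8.98 and 7.68 in the lean rats. The lean values of Hk2 enclosed both obese values, and the difference was -0.65 against lean rat 1 alone and 0.65 against lean rat 2 alone.

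In the upper steps, from glucose phosphate to the triose phosphates, the 6 members had a median difference of 0.46 and 5 were above 0. The median was 0.67 without lean rat 1 and 0.20 without lean rat 2. Gpi, which isomerises glucose phosphate, was at 10.09 and 10.31 in the obese rats, against 9.93 and 9.43 in the lean rats. Pfkl and Pfkp, the liver and platelet forms of phosphofructokinase, had differences of 0.41 ± 0.27 and 0.66 ± 0.28, with groups that did not overlap in either gene. Pfkl was at 7.35 and 7.26 in the obese rats, against 6.80 and 6.99 in the lean rats. Pfkp was at 7.11 and 7.08 in the obese rats, against 6.65 and 6.22 in the lean rats (limma unadjusted p = 0.045, adjusted p = 0.315). Pfkfb3, which makes the activator of phosphofructokinase, was at 9.26 and 10.17 in the obese rats, against 9.75 and 9.13 in the lean rats, so each group spanned a wide range and they overlapped. Aldoc, the brain aldolase, was at 5.43 and 5.05 in the obese rats, against 5.11 and 5.57 in the lean rats, a difference of -0.10 ± 0.27 with groups that overlapped. Tpi1, which interconverts the triose phosphates, was at 10.30 and 10.27 in the obese rats, against 10.29 and 8.64 in the lean rats. Lean rat 1 lay between the values of the obese rats and lean rat 2 stood low. The difference of Tpi1 was 0.82 ± 0.51 (limma adjusted p = 0.478), 0.00051 against lean rat 1 alone and 1.64 against lean rat 2 alone.

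The lower enzymes, from glyceraldehyde phosphate to pyruvate, had differences above 0 in all 6 members, with a median of 0.82. Without lean rat 2 the median was 0.33 and 5 of 6 were above 0, and without lean rat 1 it was 1.11. Pgam1, the phosphoglycerate mutase of most tissues, was at 10.98 and 11.15 in the obese rats, against 9.88 and 10.05 in the lean rats, a difference of 1.10 ± 0.30 or 2.14-fold (limma adjusted p = 0.168). Its lean rats were close together and its difference was 1.19 against lean rat 1 alone and 1.01 against lean rat 2 alone. Eno1, the enolase of most tissues, was at 11.08 and 10.67 in the obese rats, against 10.31 and 9.68 in the lean rats, a difference of 0.88 ± 0.35. Eno2, the neuronal enolase, was at 7.32 and 6.60 in the obese rats, against 6.31 and 6.08 in the lean rats, a difference of 0.76 ± 0.31. The groups did not overlap for Pgam1, Eno1 or Eno2.

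Gapdh, Pgk1 and Pkm showed another pattern, in which lean rat 1 lay with the obese rats and lean rat 2 was lowest. The groups overlapped for Gapdh and Pgk1 but not for Pkm, where lean rat 1 lay just under both obese rats. Pgk1, which makes the initial ATP of glycolysis, was at 9.90 and 10.04 in the obese rats, against 9.93 and 8.06 in the lean rats. Gapdh, the glyceraldehyde phosphate dehydrogenase often used as a reference transcript, was at 12.60 and 12.42 in the obese rats, against 12.96 and 11.14 in the lean rats. Pkm, the pyruvate kinase of most tissues and muscle, was at 10.49 and 10.49 in the obese rats, against 10.41 and 9.51 in the lean rats. The difference of Pgk1 was 0.97 ± 0.56 (limma adjusted p = 0.444), 0.03 against lean rat 1 alone and 1.91 against lean rat 2 alone. That of Gapdh turned sign, at 0.46 ± 0.55 from both lean rats, -0.45 from lean rat 1 alone and 1.37 from lean rat 2 alone. After quantile normalization the obese mean exceeded lean rat 2 by 1.65 for Pgk1, 1.38 for Tpi1, 1.18 for Gapdh and 0.76 for Pkm, against 1.91, 1.64, 1.37 and 0.98 without it. The part of the muscle signal of lean rat 1, and of the narrower spread of lean rat 2, in these values was not tested.

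**Figure D3:**
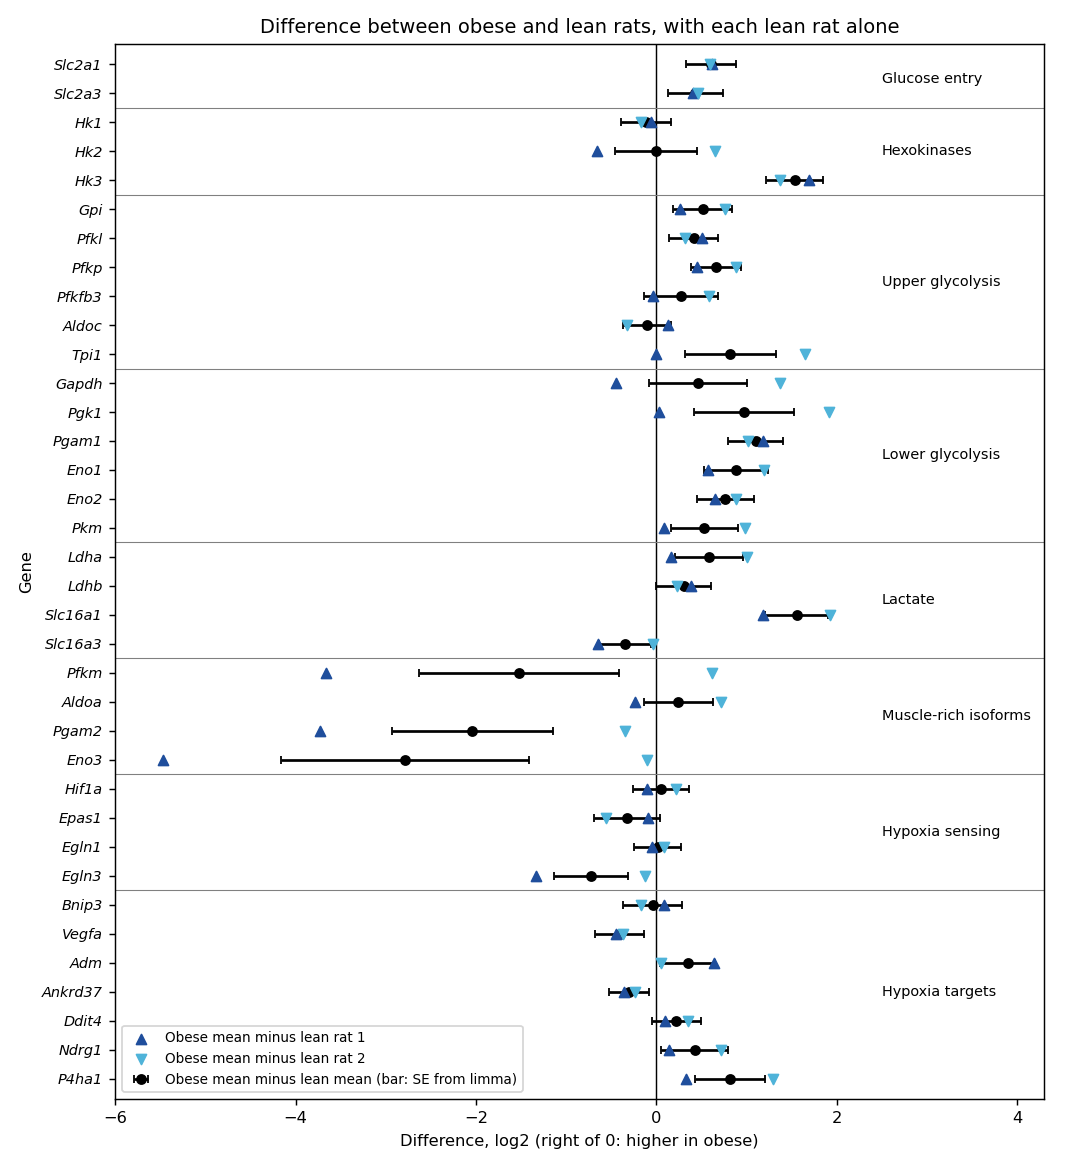
Difference in log2 level (horizontal axis, right of 0 where obese is higher) for each gene, as obese mean minus lean mean with its limma SE (circles), minus lean rat 1 alone (upward triangles) and minus lean rat 2 alone (downward triangles). The triangles lie far apart for Eno3 (-5.47 and -0.10), Gapdh (-0.45 and 1.37) and Pgk1 (0.03 and 1.91) and close together for Pgam1 (1.19 and 1.01) and Slc2a1 (0.62 and 0.59).

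Over the 36 members, 9 had a difference whose sign depended on which lean rat was used (25.0%, against 34% of all genes), and among the 32 outside the muscle-rich isoforms 7 did. Lean rat 1 exceeded lean rat 2 for 26 of 36 members, against 6051 of all 14506 genes. The median of lean rat 1 minus lean rat 2 was 0.46 over the 36 members and -0.10 over all genes. Outside the muscle-rich isoforms it was 0.29. The summed intensity of the 32 members outside the muscle-rich isoforms was 22987 and 23437 in the obese rats, against 22369 in lean rat 1 and 12612 in lean rat 2. The obese rats were closer to each other, with a median distance of 0.28 over the members, against 0.54 between the lean rats. Over all genes these distances were 0.21 and 0.36, and outside the muscle-rich isoforms 0.32 and 0.46.

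Some of these genes have copies in the genome and several rows on the array, and the rows did not always tell the same story. All 16 Gapdh rows had a positive difference, from 0.46 to 1.02, and in all 16 lean rat 1 was highest and lean rat 2 lowest. Near-identical copies can share probes, so these rows are not independent measurements. The 3 Eno1 rows (0.88 to 1.12) and the 3 Pkm rows (0.45 to 0.55) gave like values, and the dimmer Pgam1 row was at 0.46. Ldha was the exception. Its row of record was at 10.08 and 10.43 in the obese rats, against 10.09 and 9.25 in the lean rats, a difference of 0.58 ± 0.38. The other row annotated to Ldha was at 6.0 and 11.24 in the obese rats, against 11.23 and 9.39 in the lean rats, a difference of -1.70 ± 1.53. In that row the obese rats were 5.24 apart, the widest distance between them of all 29214 rows, where the next widest was 3.80 and the median 0.21. Which transcript the row reads, and whether a sequence difference between the rats touches its probes, was not tested.

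**Figure D4:**
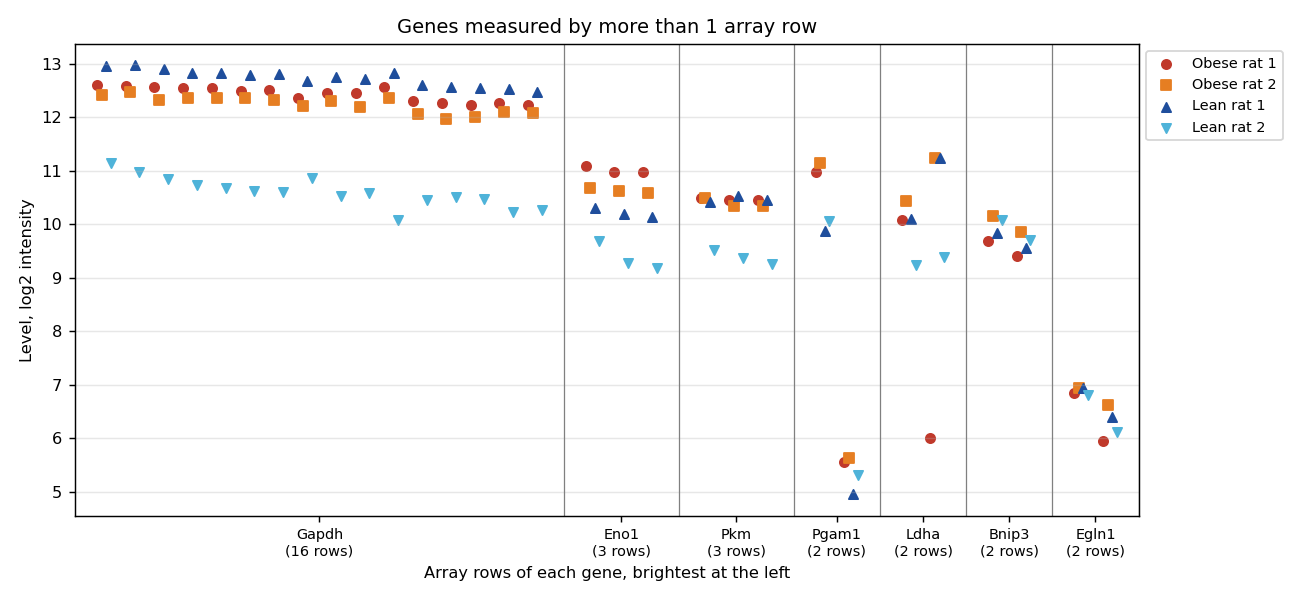
Level (log2 intensity, vertical axis) of every array row of the 7 members with more than 1 row, brightest row at the left within a gene, 1 point per rat. The 16 Gapdh rows repeat the same order of rats, and the second Ldha row has obese rat 1 at 6.0 and obese rat 2 at 11.24.

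Among the lactate genes the carrier Slc16a1 stood out from the other 3. Its difference was close to that of Hk3, and which of the 2 was higher depended on the setting, with Slc16a1 at 1.38 and Hk3 at 1.61 after quantile normalization. Slc16a1, a proton-linked carrier that moves lactate, pyruvate and ketone bodies, was at 9.60 and 9.47 in the obese rats, against 8.35 and 7.61 in the lean rats, a difference of 1.56 ± 0.35 or 2.94-fold (SE, n = 2 each, limma adjusted p = 0.0995). The groups did not overlap, and the difference stood at the 98.7th percentile of all genes. It was 1.19 against lean rat 1 alone and 1.92 against lean rat 2 alone. Slc16a3, the lactate exporter of highly glycolytic cells and fast muscle, was at 5.73 and 5.35 in the obese rats, against 6.19 and 5.58 in the lean rats, a difference of -0.35 ± 0.29. Its highest value was in lean rat 1, and without that rat the difference was -0.04. Ldhb, the heart form of lactate dehydrogenase, was at 8.77 and 9.13 in the obese rats, against 8.57 and 8.72 in the lean rats (0.30 ± 0.31).

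None of the 4 oxygen-sensing members passed, and 3 of them had differences within about their standard error. Hif1a was at 9.0 and 9.20 in the obese rats, against 9.21 and 8.89 in the lean rats, a difference of 0.05 ± 0.31. Epas1, the other HIF alpha subunit and one rich in endothelium, was at 9.06 and 9.79 in the obese rats, against 9.51 and 9.98 in the lean rats, a difference of -0.33 ± 0.37. Egln1, the main prolyl hydroxylase, was at 6.84 and 6.93 in the obese rats, against 6.93 and 6.80 in the lean rats, a difference of 0.02 ± 0.26. Egln3, a prolyl hydroxylase that HIF itself induces, was at 5.44 and 5.99 in the obese rats, against 7.05 and 5.84 in the lean rats, a difference of -0.73 ± 0.41 that was -0.13 without lean rat 1 and -1.33 without lean rat 2. It was the largest difference of the 4 in size, with the highest value in lean rat 1. The groups overlapped in all 4 genes, and the sign of Hif1a, Epas1 and Egln1 turned with a rat left out.

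The hypoxia targets had a median difference of 0.22, and without lean rat 1 of 0.06. P4ha1, a subunit of the collagen prolyl hydroxylase, had the largest difference of the targets, 0.82 ± 0.39 (limma adjusted p = 0.362). It was at 8.91 and 8.49 in the obese rats, against 8.37 and 7.40 in the lean rats. The difference of P4ha1 was 0.33 against lean rat 1 alone, where that of Adm was larger (0.64), and 1.30 against lean rat 2 alone. Vegfa, the main vessel growth factor, was lower in both obese rats, at 6.95 and 7.17, against 7.5 and 7.43 in the lean rats, a difference of -0.41 ± 0.27 (limma adjusted p = 0.514). Ddit4, a stress-induced inhibitor of mTOR signalling, was at 6.81 and 6.52 in the obese rats, against 6.57 and 6.32 in the lean rats, a difference of 0.22 ± 0.27. Ndrg1, a stress-responsive differentiation gene, was at 9.55 and 8.85 in the obese rats, against 9.06 and 8.48 in the lean rats, a difference of 0.43 ± 0.37. In both genes the higher lean rat, rat 1, lay between the obese rats. Bnip3, which marks mitochondria for removal, was at 9.68 and 10.16 in the obese rats, against 9.83 and 10.08 in the lean rats (-0.04 ± 0.33). Adm, the vasodilator peptide adrenomedullin, was at 6.96 and 7.23 in the obese rats, against 6.45 and 7.04 in the lean rats, a difference of 0.35 ± 0.31 with groups that overlapped. Ankrd37, an ankyrin repeat gene that HIF induces, was at 4.58 and 4.73 in the obese rats, against 5.02 and 4.89 in the lean rats, a difference of -0.30 ± 0.22. Both obese values were lower, and Ankrd37 is dim enough that 1 array placed it under the 95th percentile of receptor genes. The targets thus did not share a direction, since 4 of 7 were above 0 (57.1%, against 50.1% of all genes) and 3 below. Groups that did not overlap had obese higher in 1 gene (14.3%, against 26.4%) and lower in 2 (28.6%, against 21.3%). With 7 genes these shares are not a result about the targets.

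Other genes of the same pathways were read from the same fit. Of 34 further genes of glucose and pyruvate handling 29 were measured and 0 passed, with a median of 0.02. Mpc1 and Mpc2, the subunits of the carrier that takes pyruvate into mitochondria, had the 2 smallest p of that list. Mpc1 was at 7.44 and 8.02 in the obese rats, against 6.43 and 5.42 in the lean rats, a difference of 1.80 ± 0.39 (limma adjusted p = 0.093), and Mpc2 was at 0.99 ± 0.32. Both groups of values were apart. Without lean rat 2 both differences were smaller, with Mpc1 at 1.30. Without lean rat 1 the differences of Mpc1 and Mpc2 were 2.31 and 1.30. In that fit 4 of the 29 passed as higher (14%, against 4.58% of all genes) and 0 as lower, whereas without lean rat 2, 0 passed as higher and 2 as lower (6.90%, against 1.94%). Of 45 further hypoxia-related genes 42 were measured and 0 passed, with a median of 0.11. Without lean rat 1, 4 of the 42 passed as higher (9.52%), and without lean rat 2, 0 passed in either direction and the median was 0.00077. Bhlhe41, a transcriptional repressor of the clock that HIF can induce, was at 7.76 and 7.76 in the obese rats, against 6.54 and 6.44 in the lean rats, a difference of 1.28 ± 0.27 (limma adjusted p = 0.084). Igfbp3, an insulin-like growth factor binding protein, was at 7.12 and 6.96 in the obese rats, against 8.13 and 8.10 in the lean rats, a difference of -1.07 ± 0.28 (limma adjusted p = 0.142). At an unadjusted limma p under 0.05 5 of the 29 were higher and 2 lower (17.2% and 6.90%), and 9 of the 42 were higher and 2 lower (21.4% and 4.76%), against 9.93% higher and 5.33% lower over all genes.

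Markers of the remaining cell types were measured beside these genes, and their part was not tested. The 5 erythroid markers summed to 1391 to 4398 in the obese rats, against 4381 to 8163 in the lean rats, so the ranges touched. Their 2 smallest p belonged to Hbb-b1, a beta-globin gene (-1.82), and Alas2, the haem synthesis enzyme of red cells (-1.58). The 11 endothelial markers summed to 1927 to 2006 in the obese rats, against 2391 to 2490 in the lean rats. Emcn was at -1.19 and Plvap at -0.89, but the median of the 11 was -0.24. Of the 11, 8 were below 0 and 3 above, up to 0.82. The 9 fibroblast markers summed to 11434 to 11630 in the obese rats, against 12012 to 13017 in the lean rats, with Thy1 at 1.35 and Dpt at -0.67. The 15 adipocyte markers summed to 30077 to 38039 in the obese rats, against 25701 to 26273 in the lean rats, with Lep at 1.56 and Dgat2 at 0.72. With all 4 arrays none of the genes named in these 4 lists passed, while without lean rat 1 Emcn and Thy1 did, and without lean rat 2 Lep did. Without lean rat 1 the adipocyte marker Cfd, chosen for mention after its value was seen, was past the threshold as lower (-1.58), unlike Lep and Dgat2. The median of the 5 erythroid markers was -1.03 with all 4 arrays, -1.88 without obese rat 1 and -0.27 without obese rat 2. In the muscle list Tnnt1 and Tnnt3, troponin genes, had the smallest p, at -2.27 and -3.21.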

How the data were processed

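Retroperitoneal fat of 2 obese and 2 lean rats was profiled on 1 array per rat, from 100 ng of RNA. The authors deposited a linear intensity for each row of each array, made with RMA per the submitters' processing notes. Which program, release and genome build were used is not given in the sources used here. RMA as usually run equalises probe distributions between arrays and would lessen a change in most genes at once, yet the deposited log2 values of lean rat 2 had a narrower interquartile range (2.24) than those of the other arrays (2.63 to 2.77), and which normalization step was applied is not known.

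The log2 of each deposited intensity was taken without a pseudocount. Of 29214 rows, 15310 had 1 gene symbol in the platform annotation, 323 several and 13581 none, and the brightest row of each symbol gave 14506 genes. Phenotypes, taken from the titles, were set against each other in R 4.3.3 with limma 3.58.1 (lmFit, then eBayes with trend, and no covariates), and calls were made at a Benjamini-Hochberg adjusted p of 0.05 over the genes tested. The members and lists were chosen with earlier results of these data known, and no test was run over a list. Named are all members and, of each other list, its called genes or the 2 with the smallest p. The second Ldha row was singled out after its values were seen. Alternatives left out each rat in turn, filtered dim genes, used rows in other ways, weighted arrays, changed the variance model, centred medians, normalized quantiles and blocked on rat number. The procedure was tested on simulated data with 2 arrays a group. It recovered 0% of changes of 1 on the log2 scale, 30.9% of changes of 2 and 58.6% of changes of 3. In that simulation 2.11% of the calls were false. A member that was not called can therefore still differ by such amounts. Figures were drawn with matplotlib 3.10.9. The small number of arrays limits the precision.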

Additional observations from a re-analysis of the deposited data

How the results depend on the processing

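Across all genes 122 were called, 327 with the replicate block, 75 with quantile normalization, 262 with a robust variance model, 185 over all rows, and 268 to 1081 with a rat left out. Of the members 0 were called, 2 with the replicate block (Hk3 and Slc16a1), 1 with the robust model (Hk3) and 2 to 3 with a rat left out. Quantile normalization, median centring, array weights, the filter on dim genes, no variance trend, the mean of a gene's rows and all rows gave 0. The rat numbers are not stated to pair the animals, and deviations of same-numbered rats correlated at 0.02 across genes. The block leaves 1 residual degree of freedom. The median of the hypoxia targets lay between 0.056 and 0.215 when single rats were dropped. That of the further glucose and pyruvate genes was 0.20 with quantile normalization, 0.23 after the dimmest 25% of genes were left out and 0.044 to 0.139 with a rat left out. For the 32 members outside the muscle-rich isoforms it was 0.11 to 0.59 with a rat left out (0.42 with all), and for the further hypoxia-related genes 0.00077 to 0.20 (0.11 with all). The moves for these 32 members, for the further hypoxia-related genes and for the muscle-rich isoforms (-3.70 to 0.26) were under 1 SD between rats. That is a loose limit with 2 rats a group. This SD comes from the distances between the rats of a group, and leaving out a rat moves a list by a part of the same distances. A move under 1 SD is therefore close to fixed in advance and does not show that a list is stable. In some settings the hypoxia targets (SD 0.14) and the further glucose and pyruvate genes (SD 0.11) moved by more than 1 SD. Median centring raised the median of all genes by 0.099 and turned the sign of Hk2 (0.094) and Bnip3 (0.060). Quantile normalization turned Aldoa (-0.0092), Hif1a (-0.13) and Egln1 (-0.12), and the mean of a gene's rows turned Ldha (-0.56), which averages in its other row. With a rat left out these turned sign: Hk2 (-0.65 to 0.65), Pfkm (-3.66 to 0.62), Pfkfb3 (-0.18 to 0.73), Aldoa (-0.23 to 0.72), Aldoc (-0.33 to 0.12), Gapdh (-0.45 to 1.37), Hif1a (-0.11 to 0.21), Epas1 (-0.69 to 0.040), Egln1 (-0.048 to 0.080) and Bnip3 (-0.28 to 0.20). The causes were not tested.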
